A study of Homo sapiens with 12 samples.

Results

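The kallikrein-related peptidases are secreted serine proteases encoded side by side on human chromosome 19. They are made as inactive precursors, are cut to their active form by other proteases and often activate each other. In the prostate, luminal cells release KLK3 (prostate-specific antigen) and KLK2 into seminal fluid, where KLK3 cuts the semenogelins of the semen clot. Both genes are textbook examples of genes that androgens switch on. ARv7 is a splice-variant transcription factor that lacks a hormone-binding part and is active without hormone.

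The 10 kallikrein genes described here were taken by name from the gene table: KLK1, KLK2, KLK3, KLK4, KLK5, KLK10, KLK11, KLK12, KLK13 and KLK15, which are 10 of 19973 genes. RNA was sequenced from 12 dishes of human prostate cancer cells in 4 groups of 3. C4-2 cells, a castration-resistant subline of LNCaP, carried a lentivirus expressing ARv7 (C4-2 ARv7) or the vector control (C4-2 control). 22Rv-1 cells, which make ARv7 of their own, carried a lentiviral short hairpin against ARv7 (22Rv-1 ARv7-depleted) or a control hairpin (22Rv-1 control). Cells of all 4 groups were lentivirus-infected, the manipulated lines were obtained by puromycin selection, and the cells were grown in RPMI medium with fetal bovine serum. The sources used here give neither the promoter that drives ARv7 nor the number of lines selected per group. Libraries are therefore dishes, and p-values measure the spread between dishes. The study asked which genes follow a change in ARv7.

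Libraries held 12318529 to 14672948 counts, at which 3 counts in a library equal 0.204 to 0.244 CPM, counts scaled to a common library total. Levels are given as FPKM, read counts per gene length and library total. Markers of prostate epithelium stood at a group mean of at least 1 FPKM for 7 of 7 genes in C4-2 ARv7, for 6 of 7 in C4-2 control (KRT19 was at 0.705) and for 7 of 7 in both 22Rv-1 groups. None of the 4 leukocyte or 4 endothelial markers reached that level. Of 6 basal or squamous markers KRT10 did in every group (3.70 to 5.17 FPKM), and of 5 fibroblast and muscle markers COL1A1 did in 3 groups, at 1.28 FPKM in C4-2 ARv7, 0.83 in C4-2 control, 2.47 in 22Rv-1 ARv7-depleted and 1.91 in 22Rv-1 control. The leukocyte markers summed to 0.0313 to 0.0708 FPKM in C4-2 ARv7, with CD3E and CD68 at 0, and to 0.816 to 1.05 FPKM in C4-2 control, with none at 0. In 22Rv-1 they summed to 0.248 to 1.58 FPKM in ARv7-depleted libraries, with CD3E at 0, and to 0.0575 to 0.239 FPKM in control libraries, with CD3E and CD68 at 0. Their part in the results of either line was not tested. In bulk RNA, fewer expressing cells and less RNA per cell cannot be told apart. The third C4-2 control library stood further from its fellow dishes than any other pair of dishes, where the chi-square over its degrees of freedom was 13.0 and 7.15, and other pairs of one group had 2.12 to 4.77. Kallikrein results without each library are given where they differ.

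The sequences before KLK3 and KLK2 are shown because these neighbouring genes moved together. They are the 250 bases before each gene's RefSeq start on GRCh38.p14, plus strand, at chr19:50854665-50854914 for KLK3 and chr19:50873189-50873438 for KLK2. RefSeq promoter windows were matched for 9 of the 10 genes. The KLK2 model of the deposited table begins upstream of that start, so its window lies inside the gene as the table draws it. Capitals mark the best match to the androgen response motif, which is the half-site AGAACA, any 3 bases and then TGTTCT, searched on both strands.
KLK3: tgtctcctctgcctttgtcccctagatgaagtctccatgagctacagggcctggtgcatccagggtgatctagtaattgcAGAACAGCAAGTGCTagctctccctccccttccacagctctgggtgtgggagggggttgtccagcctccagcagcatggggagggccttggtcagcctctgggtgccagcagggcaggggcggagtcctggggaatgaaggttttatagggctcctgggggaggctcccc
KLK2: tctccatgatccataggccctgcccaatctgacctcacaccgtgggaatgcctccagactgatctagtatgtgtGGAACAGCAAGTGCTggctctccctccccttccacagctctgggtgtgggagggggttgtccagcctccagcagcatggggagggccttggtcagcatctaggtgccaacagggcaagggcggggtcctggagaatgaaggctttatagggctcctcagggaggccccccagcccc
The KLK3 match differs from the motif at 2 of its 12 fixed letters and lies 170 to 156 bases before the start. The KLK2 match differs at 3 and lies 176 to 162 bases before the start. A match with at most 2 changes occurs in 1.19% of 35116 RefSeq promoter windows of that length, and one with at most 3 changes in 9.17%. The half-site AGAACA, on either strand, is in the KLK3 window and not in the KLK2 window, and in 12.4% of all windows. Both windows hold TATAAA on either strand, as do 10.7% of all. In a global alignment with gaps, 82% of the bases of the KLK3 window are identical in the KLK2 window, with one identical run of 80 bases. With the KLK4 window before the start at chr19:50910738, KLK3 aligned at 50% and KLK2 at 48%. The KLK4 window at start chr19:50911395 was not aligned. With a KLK15 window, KLK3 aligned at 50.8% and KLK2 at 51.2%. These matches are letters in a window, and binding was not measured.

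KLK3 was the leading kallikrein transcript of C4-2 cells that expressed ARv7. It stood at 559.5, 548.8 and 550.2 FPKM in C4-2 ARv7 libraries and at 127.7, 133.9 and 137.4 FPKM in C4-2 control libraries, with no overlap between the groups. KLK3 rose by 1.91 ± 0.061 (SE) on the log2 scale, a 3.75-fold change (edgeR quasi-likelihood test, adjusted p = 1.4e-15). By mean FPKM it was the gene of rank 29 among all genes in C4-2 ARv7 and of rank 193 in C4-2 control.

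KLK2, a trypsin-like protease that can activate the KLK3 precursor, moved more than KLK3. It stood at 79.3, 79.8 and 75.3 FPKM in C4-2 ARv7 libraries and at 13.8, 15.4 and 15.9 FPKM in C4-2 control libraries. The groups lay far apart, and KLK2 rose by 2.23 ± 0.068 (SE) on the log2 scale, 4.70-fold (edgeR adjusted p = 7.1e-16). The ratio of KLK3 to KLK2 in FPKM was 7.08 ± 0.218 in C4-2 ARv7 and 8.88 ± 0.332 in C4-2 control (SD, n = 3 each), and the groups did not overlap. An exact two-sided permutation test gave p = 0.1, the smallest that 3 against 3 allows.

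KLK4, a prostate kallikrein that also matures tooth enamel by cutting its matrix, moved the other way. It stood at 191.1, 182.1 and 188.5 FPKM in C4-2 ARv7 libraries and at 234.2, 253.1 and 241.1 FPKM in C4-2 control libraries. All C4-2 ARv7 values lay below all control values, and KLK4 fell by 0.52 ± 0.057 (SE) on the log2 scale (edgeR adjusted p = 1.82e-07). KLK4 headed the order of kallikrein FPKM in C4-2 control, and KLK3 headed it in C4-2 ARv7. That change of leader depends on the division by gene length, since in read counts KLK3 led in C4-2 control too (26961 counts, and 20533 for KLK4).

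KLK15, a protease described as an activator of the KLK3 precursor, stood at 2.90, 3.35 and 3.30 FPKM in C4-2 ARv7 libraries and at 3.09, 1.97 and 3.45 FPKM in C4-2 control libraries. The groups overlapped, with a log2 fold change of 0.02 ± 0.20 (SE, edgeR adjusted p = 0.945). Its gene is overlapped on the opposite strand by AC011523.1 over 6684 bases. Reads of the pair cannot be told apart without strand, which the sources used here do not give.

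Of the 10 kallikreins, 4 passed the filter on low counts in C4-2 and 3 of these passed the test, 2 higher and 1 lower in C4-2 ARv7. Across all genes tested in C4-2, 59.1% were called, 29.6% higher and 29.5% lower, so a share of this kind was common. The median log2 fold change was 0.96 over the 4 kallikreins and 0.01 over all 12783 genes tested. Scaling to total counts alone moved the median of all genes by 0.15, and KLK2 (2.38), KLK3 (2.05) and KLK4 (−0.37) kept direction and call. Of the distinct stretches of 50 bases in KLK3's annotated transcripts, 11 of 5119 also occur in KLK2's. None of 100 bases did. Only identical stretches were counted, so they set no limit on reads placed with mismatches. How many reads the pair shares was not tested.

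In 22Rv-1 cells KLK3 was a low transcript, and it was higher after depletion of ARv7. Libraries depleted of ARv7 held 4.90, 4.99 and 6.10 FPKM (298, 298 and 394 counts), and 22Rv-1 control libraries held 3.47, 3.40 and 3.01 FPKM (231, 207 and 204 counts). Every ARv7-depleted value lay above every control value, and KLK3 rose by 0.65 ± 0.109 (SE) on the log2 scale, 1.57-fold (edgeR adjusted p = 5.4e-07). By mean FPKM KLK3 ranked 7207 in 22Rv-1 ARv7-depleted and 8685 in 22Rv-1 control.

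KLK2 stood at 10.2, 10.6 and 10.5 FPKM in 22Rv-1 ARv7-depleted libraries and at 8.47, 8.49 and 7.21 FPKM in 22Rv-1 control libraries. These groups did not overlap either, and KLK2 rose by 0.33 ± 0.072 (SE) on the log2 scale, 1.26-fold (edgeR adjusted p = 9.13e-05). KLK2 thus exceeded KLK3 in FPKM in 22Rv-1, with a KLK3 to KLK2 ratio of 0.511 ± 0.0625 in 22Rv-1 ARv7-depleted and 0.409 ± 0.00831 in 22Rv-1 control (SD, n = 3 each). The exact two-sided permutation p was again 0.1.

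KLK4 was the highest kallikrein of 22Rv-1 cells by FPKM. It stood at 239.7, 250.3 and 246.5 FPKM in 22Rv-1 ARv7-depleted libraries and at 267.7, 259.3 and 248.6 FPKM in 22Rv-1 control libraries, and the groups overlapped. The log2 fold change was −0.12 ± 0.044 (SE, edgeR adjusted p = 0.0169). That call was lost with total counts alone (−0.07, adjusted p = 0.155) and with limma at either pseudocount (0.138 and 0.136). It was also lost without the first 22Rv-1 control library (adjusted p = 0.11) and without the first ARv7-depleted library (adjusted p = 0.054).

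KLK1, tissue kallikrein, which releases kinin peptides from kininogen, was a transcript of the 22Rv-1 line. Libraries depleted of ARv7 held 21.9, 23.7 and 21.2 FPKM of KLK1, and 22Rv-1 control libraries held 15.4, 15.2 and 14.7 FPKM. The groups were separate, and KLK1 rose by 0.51 ± 0.078 (SE) on the log2 scale, 1.43-fold (edgeR adjusted p = 6.01e-08). In C4-2 the gene was near the floor, with 3, 15 and 4 counts in C4-2 ARv7 and 3, 0 and 7 counts in C4-2 control, and it was not tested there.

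KLK15 stood at 1.77, 2.92 and 2.13 FPKM in 22Rv-1 ARv7-depleted libraries and at 0.852, 1.26 and 1.19 FPKM in 22Rv-1 control libraries. The lowest ARv7-depleted value was above the highest control value, and KLK15 rose by 0.99 ± 0.248 (SE) on the log2 scale (edgeR adjusted p = 0.000536). The limit from its overlapping antisense gene holds here too.

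KLK11, a trypsin-like kallikrein also made in prostate, had 35, 39 and 33 counts in 22Rv-1 ARv7-depleted libraries and 3, 7 and 3 counts in 22Rv-1 control libraries. The ratio of summed counts over library totals was 8.69, with an exact 95% counting interval of 4.87 to 16.9, and the fitted log2 fold change was 3.04 ± 0.448 (SE, edgeR adjusted p = 2.37e-08). KLK11 passed the filter on low counts through the ARv7-depleted group alone. C4-2 libraries held 0, 2 and 0 counts with ARv7 and no count in the control.

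Of the 10 kallikreins, 6 passed the filter in 22Rv-1 and all 6 of these were called, 5 higher and 1 lower in 22Rv-1 ARv7-depleted cells. Over all genes tested in 22Rv-1, 48% were called, 23.9% higher and 24.1% lower. The median log2 fold change was 0.58 over the 6 kallikreins and 0.01 over all 13459 genes. KLK11 had to differ to enter that count.

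The remaining genes were at or near the detection limit. KLK10 had 6, 9 and 14 counts in 22Rv-1 ARv7-depleted libraries and 0, 8 and 5 in 22Rv-1 control libraries, which overlap (ratio 2.36, exact 95% counting interval 1.19 to 4.94). It had 2 counts over the C4-2 ARv7 libraries and 2 over the C4-2 control libraries. KLK13 had 19 counts over 12 libraries and KLK5, a skin kallikrein, had 11. KLK12 had none in any library, which allows up to 0.244 CPM in the shallowest. KLK5, KLK10 and KLK12 each have an antisense gene across part of their length, so the few reads of KLK5 and KLK10 are uncertain.

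**Figure D1:**
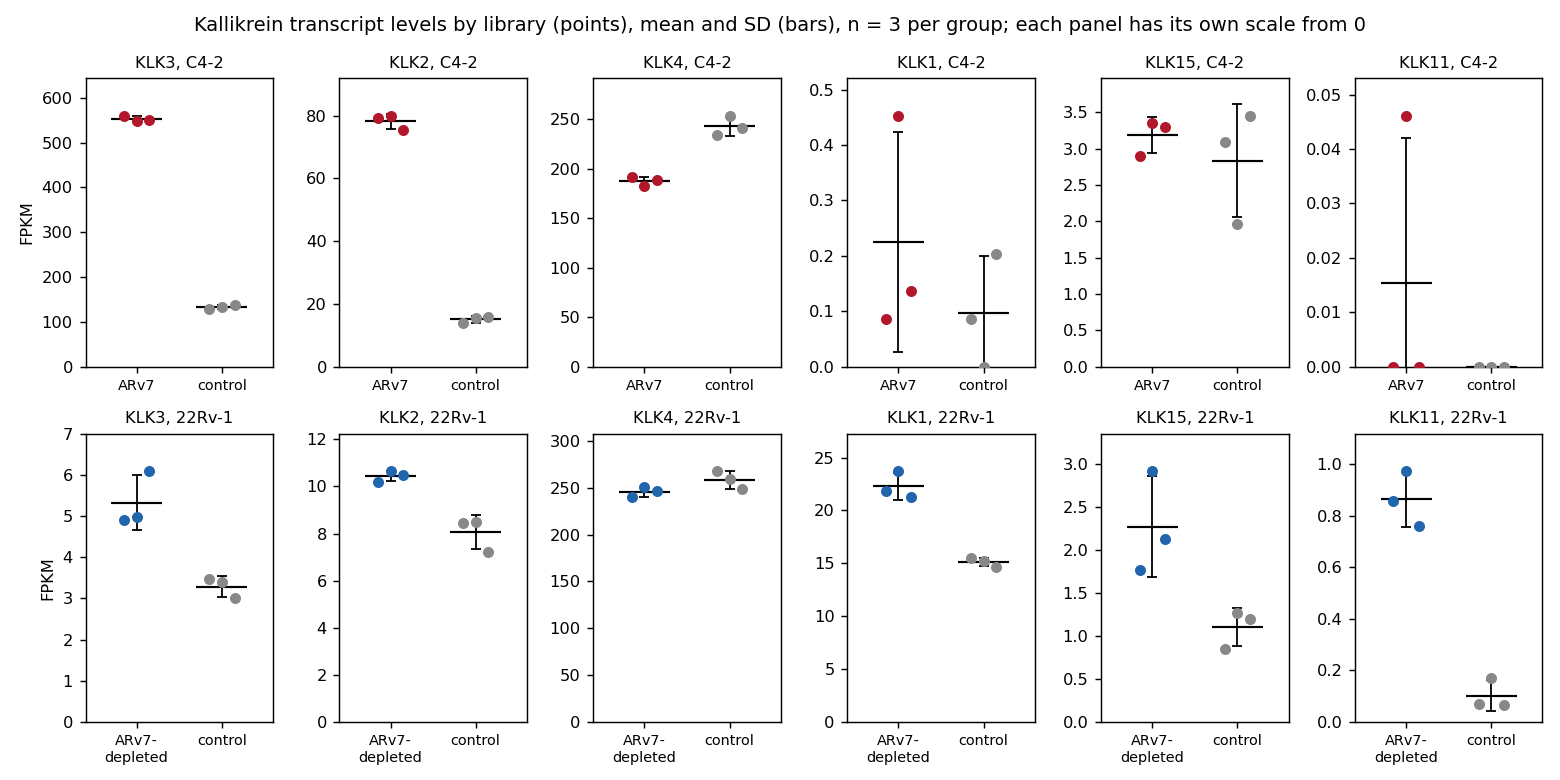
FPKM of 6 kallikreins in each library, with a panel per gene and line, each on its own linear scale from 0; points are libraries, the long bar is the group mean and the whiskers are the SD. KLK3 lies between 548.8 and 559.5 in C4-2 ARv7 and between 127.7 and 137.4 in C4-2 control, while KLK4 is lower in C4-2 ARv7 than in C4-2 control and its 22Rv-1 groups overlap.

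**Figure D2:**
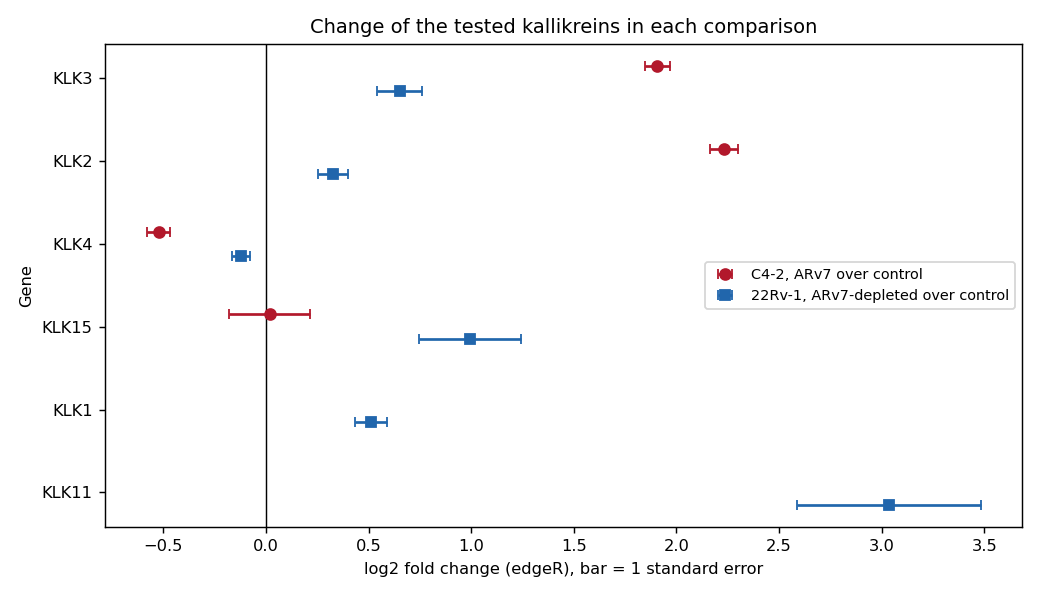
Log2 fold change of each tested kallikrein (edgeR), with bars of 1 SE, for C4-2 ARv7 over C4-2 control and for 22Rv-1 ARv7-depleted over 22Rv-1 control. KLK2 and KLK3 lie above 0 in both comparisons, at 2.23 and 1.91 in C4-2 and at 0.33 and 0.65 in 22Rv-1, and KLK4 lies below 0 in both.

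The lines were then set against each other along one direction, from lower to higher ARv7, which is C4-2 ARv7 over control and 22Rv-1 control over ARv7-depleted. Along it the C4-2 log2 change exceeded the 22Rv-1 change by 2.57 ± 0.097 (SE) for KLK2 and by 2.57 ± 0.106 for KLK3 (edgeR interaction contrast over 12 libraries, adjusted p of 2.4e-22 and 3.3e-21). For KLK4 the difference was −0.64 ± 0.073 (adjusted p = 3.38e-09), and for KLK15 it was 1.02 ± 0.325 (adjusted p = 0.00865). KLK1 and KLK11 also passed, on at most 22 counts per C4-2 group. KLK11 entered through the 22Rv-1 ARv7-depleted group alone and had to differ within 22Rv-1 to be counted. KLK1 entered through the 22Rv-1 groups. Both calls were lost under some alternatives, given further below. In all, 6 of 6 tested kallikreins were called in this contrast, 5 higher and 1 lower, beside 50.7% of all 14235 genes, 27.4% higher and 23.3% lower.

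Without any change of ARv7 the lines already held different kallikreins. KLK3 averaged 3.29 ± 0.249 FPKM in 22Rv-1 control and 133 ± 4.89 FPKM in C4-2 control (SD, n = 3 each), 44.9-fold lower in 22Rv-1 control (log2 −5.49 ± 0.077, edgeR adjusted p = 1.5e-37). KLK2 averaged 8.06 ± 0.732 FPKM in 22Rv-1 control and 15.01 ± 1.08 FPKM in C4-2 control (log2 −1.05 ± 0.070, adjusted p = 2.4e-16). KLK3 thus differed far more between the lines than its neighbour KLK2.

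KLK1 had 1514 counts over the 22Rv-1 control libraries and 10 over the C4-2 control libraries. That is a ratio of 157 per library total, with an exact 95% counting interval of 85.2 to 328. KLK15 was lower in 22Rv-1 control than in C4-2 control by 1.51 ± 0.239 on the log2 scale (edgeR adjusted p = 4.89e-07). KLK4 averaged 258.5 ± 9.59 FPKM in 22Rv-1 control and 242.8 ± 9.55 FPKM in C4-2 control, and its log2 fold change of −0.06 had a 95% interval of −0.16 to 0.04 (adjusted p = 0.285). The sign of that last value depends on scaling and was positive with total counts alone (0.09). Of 6 kallikreins tested between the control lines 5 were called, 2 higher and 3 lower in 22Rv-1 control, beside 83.4% of all genes, 42.5% higher and 40.9% lower. The 2 higher were KLK1 and KLK11. KLK1 passed the filter through the 22Rv-1 groups, where it is high, and had to differ to be counted. KLK11 passed through the 22Rv-1 ARv7-depleted group and had 13 counts in 22Rv-1 control and 0 in C4-2 control.

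Summed over the family, the level was higher in C4-2 ARv7 than in its control, whereas the 22Rv-1 groups were alike. The summed level of all KLK genes of the cluster was 823.1 ± 9.76 FPKM in C4-2 ARv7 and 395.5 ± 13.3 FPKM in C4-2 control (SD, n = 3 each). In 22Rv-1 it was 287.9 ± 6.86 FPKM in ARv7-depleted libraries and 286.8 ± 10.7 FPKM in control libraries, and these overlapped (exact two-sided permutation p = 0.9). KLK3 made up 67.2% ± 0.0994 of that sum in C4-2 ARv7 and 33.6% ± 0.663 in C4-2 control. It made up 1.85% ± 0.227 in 22Rv-1 ARv7-depleted and 1.146% ± 0.0476 in 22Rv-1 control. Both shares of KLK3 were separate between the groups, with an exact permutation p of 0.1 each, or 0.12 adjusted over the 6 tests of this kind.

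KLK4 took 22.7% of the family sum in C4-2 ARv7 and 61.4% in C4-2 control. In 22Rv-1 it took 85.3% in ARv7-depleted libraries and 90.2% in control libraries. KLK1 took 7.73% in 22Rv-1 ARv7-depleted and 5.27% in 22Rv-1 control. KLK2 took 9.49% in C4-2 ARv7, 3.79% in C4-2 control, 3.6% in 22Rv-1 ARv7-depleted and 2.8% in 22Rv-1 control. By FPKM, C4-2 cells thus held a KLK3 and KLK4 pool with some KLK2, and 22Rv-1 cells held a pool of KLK4 with some KLK1 and less KLK2. The order of KLK1 and KLK2 in 22Rv-1 depends on the division by gene length. In read counts KLK2 exceeded KLK1 in 22Rv-1 ARv7-depleted (2645 and 2112 counts) and in 22Rv-1 control (2150 and 1514 counts).

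**Figure D3:**
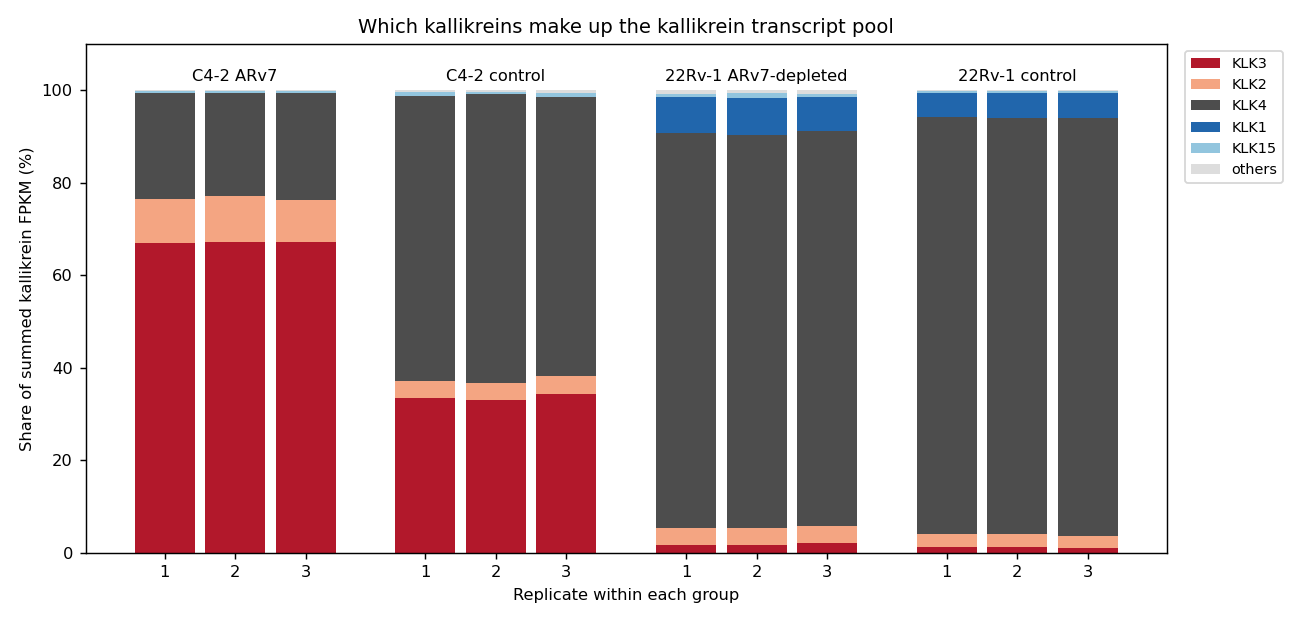
Share of the summed kallikrein FPKM taken by each gene, in percent, as 1 stacked bar per library in the 4 groups. KLK3 averages 67.2% in C4-2 ARv7 and 33.6% in C4-2 control, and KLK4 averages 85.3% in 22Rv-1 ARv7-depleted and 90.2% in 22Rv-1 control.

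In genome order on GRCh38, as the table gives it, KLK1 (chr19:50819146-50823787), KLK15 (chr19:50825289-50837213), KLK3 (chr19:50854915-50860764), KLK2 (chr19:50861568-50880567) and KLK4 (chr19:50906352-50910738) lie together. KLK3 and KLK2 are on the plus strand and KLK1, KLK15 and KLK4 on the minus strand. KLK5 (chr19:50943303-50953093), KLK10 (chr19:51012739-51020175), KLK11 (chr19:51022216-51028039), KLK12 (chr19:51029092-51035230) and KLK13 (chr19:51055626-51065114) follow, all on the minus strand. KLK3, KLK2 and KLK4, the abundant genes of C4-2, therefore sit at one end.

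Other kallikreins of the same cluster were rare. KLK8, known as neuropsin, had 6, 8 and 8 counts in 22Rv-1 ARv7-depleted libraries and none in 22Rv-1 control. That is 7.74-fold higher with the control set at a floor of 3 counts over the group. Such a fold takes the other group's counts as exact, so it is no lower bound. KLK7, a chymotrypsin-like protease of skin, had 4, 3 and 3 counts in 22Rv-1 ARv7-depleted libraries and none in 22Rv-1 control, 3.52-fold higher against the floor. It had 0, 3 and 2 counts in C4-2 ARv7 libraries and none in C4-2 control, 1.78-fold higher against the floor. In the edgeR fit with no filter on low counts, KLK7 was not called in C4-2 (adjusted p = 0.142). In 22Rv-1 that fit called KLK7 (log2 4.8 ± 1.9 SE, adjusted p = 0.033) and KLK8 (5.9 ± 1.6, adjusted p = 0.000728). Both entered it only through the ARv7-depleted group, where they are high, which limits those p-values. KLK14 had 62 counts in C4-2 ARv7 and 84 in C4-2 control (log2 −0.49 ± 0.33, edgeR adjusted p = 0.215). Between the control lines KLK14 was lower in 22Rv-1 control, with 24 counts there and 84 in C4-2 control (log2 −1.89 ± 0.453, adjusted p = 0.00026). KLK14 passed the filter of that fit mainly through the C4-2 groups, where it is high, which limits that p-value. In the ARv7 comparison of 22Rv-1 it did not pass the filter. Plasma prekallikrein KLKB1, a distant relative on chromosome 4, fell by 1.91 ± 0.256 on the log2 scale, with 58 counts in C4-2 ARv7 and 212 in C4-2 control (adjusted p = 2.76e-06).

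**Figure D4:**
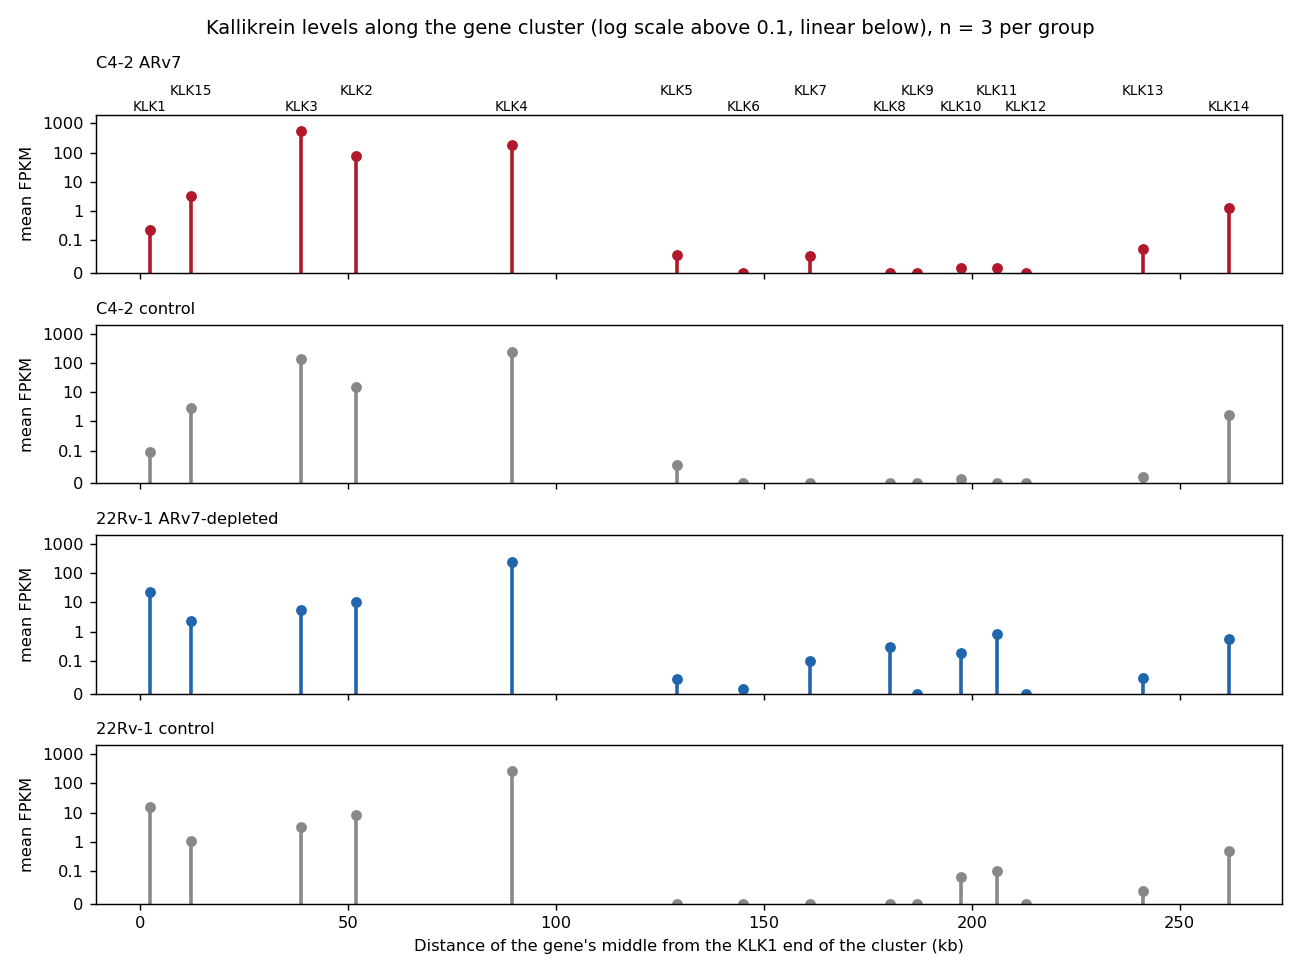
Mean FPKM of each kallikrein in the 4 groups, by the distance in kb of the gene's middle from the KLK1 end of the cluster; the vertical axis is logarithmic above 0.1 and linear below. KLK3 stands at 552.8 in C4-2 ARv7 and at 133 in C4-2 control, KLK1 at 22.3 in 22Rv-1 ARv7-depleted and 15.1 in 22Rv-1 control, and KLK8 is above 0 in 22Rv-1 ARv7-depleted alone.

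Of the genes flanking the cluster, 3 passed the filter in C4-2, and all 3 of these were lower in C4-2 ARv7, beside 29.5% of all genes. CLEC11A, a growth factor of blood and bone cells, averaged 14.6 FPKM in C4-2 ARv7 and 22.1 FPKM in C4-2 control (log2 −0.75 ± 0.11, edgeR adjusted p = 8.3e-06). CTU1, a tRNA-modifying enzyme, fell by 0.70 ± 0.204 on the log2 scale (adjusted p = 0.00609). ACP4, a testis acid phosphatase, had −0.74 (adjusted p = 0.0346), a call lost in DESeq2 (0.0545), with total counts alone (0.087), without the first or the third C4-2 control library (0.0915 and 0.0561) and without the first or the second C4-2 ARv7 library (0.131 each). In 22Rv-1, 2 of 4 tested neighbours rose, beside 23.9% of all genes, SHANK1 by 0.72 ± 0.214 and CTU1 by 0.61 ± 0.188 on the log2 scale (adjusted p of 0.00353 and 0.00483).

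Of the proteases that activate kallikreins or stand upstream of them, 3 of 5 tested were higher in C4-2 ARv7 and none was lower, beside 29.6% and 29.5% of all genes (59.1% called in all). They had a median log2 fold change of 0.27 in C4-2, against 0.01 over all genes. TMPRSS2, a membrane serine protease and androgen target, averaged 218.6 ± 2.92 FPKM in C4-2 ARv7 and 139.3 ± 1.62 FPKM in C4-2 control (log2 0.50 ± 0.054, edgeR adjusted p = 1.61e-07). CTSC, which removes dipeptides from protease precursors, rose by 0.52 ± 0.096 (adjusted p = 0.000128). PRSS8 (prostasin) had a log2 fold change of 0.27 (adjusted p = 0.0142), lost without the first C4-2 control library (0.0812) or the first C4-2 ARv7 library (0.102). HPN (hepsin) had 0.08 (adjusted p = 0.275), which passed with total counts alone (0.23, 0.00312) and without the third C4-2 control library (0.12, 0.0434). It also passed with limma at pseudocounts of 1 (0.227, adjusted p = 0.0047) and 0.1 (0.231, adjusted p = 0.00496).

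In 22Rv-1, 5 of 6 tested activators were higher and 1 was lower in ARv7-depleted cells, beside 23.9% and 24.1% of all genes, with a median log2 fold change of 0.65 against 0.01. The one that fell was TMPRSS2, at 3.48 ± 0.127 FPKM in 22Rv-1 ARv7-depleted and 7.51 ± 0.309 FPKM in 22Rv-1 control (log2 −1.16 ± 0.086, edgeR adjusted p = 5.9e-20). TMPRSS4 (1.54), HPN (0.72) and ST14, or matriptase (0.49), had log2 fold changes past the test. TMPRSS2 thus followed the direction of the ARv7 label in both lines, which KLK2 and KLK3 did not.

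Inhibitors were mostly too low to test, with 3 of 13 tested in each line, 1 higher and 1 lower. Over all genes 29.6% were higher and 29.5% lower in C4-2, and 23.9% and 24.1% in 22Rv-1. SERPINA5 in C4-2 and A2M in 22Rv-1 passed the filter through the group where they are high and had to differ to be counted. SERPINA5, the protein C inhibitor that binds KLK3 and KLK2 in semen, had 4 counts in C4-2 ARv7 and 665 in C4-2 control, 156 times as many per library total in the control (exact 95% counting interval 60.5 to 573). Its fitted log2 fold change of −7.30 was −6.71 without the first and −8.50 without the second C4-2 ARv7 library. SERPINB6, an intracellular protease inhibitor, had a log2 fold change of 0.16 in C4-2 (edgeR adjusted p = 0.018), lost without the second C4-2 control library (0.056) or the first (0.0794) or the second (0.0798) C4-2 ARv7 library. SPINK5, an inhibitor of skin kallikreins, fell by 0.67 ± 0.121 on the log2 scale in 22Rv-1 ARv7-depleted cells (edgeR adjusted p = 2.89e-06). A2M, a broad protease trap that binds KLK3 in blood, had 145 counts in 22Rv-1 ARv7-depleted and 9 in 22Rv-1 control, a ratio of 17.0 per library total (exact 95% counting interval 8.71 to 37.9). The median log2 fold change of the tested inhibitors was 0.06 in C4-2 and 0.04 in 22Rv-1, against 0.01 over all genes in each.

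Among substrates and receptors, 5 of 7 tested genes were higher and 1 lower in C4-2 ARv7, beside 29.6% and 29.5% of all genes. In 22Rv-1 ARv7-depleted cells 3 of 6 were higher and 2 lower, beside 23.9% and 24.1%. Their median log2 fold changes were 0.51 in C4-2 and 0.05 in 22Rv-1, against 0.01 over all genes in each. PLAUR and PTHLH passed the C4-2 filter through the group where they are high and had to differ to be counted. F2RL1, a receptor that KLK2 and KLK4 can activate by cleavage, averaged 49.4 FPKM in C4-2 ARv7 and 23.3 FPKM in C4-2 control (log2 0.94 ± 0.067, edgeR adjusted p = 4.1e-10). It averaged 8.80 FPKM in 22Rv-1 ARv7-depleted and 17.5 FPKM in 22Rv-1 control (log2 −1.04 ± 0.086, adjusted p = 1.3e-17). F2RL1 thus tracked the ARv7 label in both lines.

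Fibronectin, FN1, a KLK3 substrate, rose in both comparisons, by 0.45 ± 0.091 in C4-2 ARv7 and by 3.52 ± 0.054 in 22Rv-1 ARv7-depleted cells on the log2 scale (edgeR adjusted p of 0.000284 and 2e-63). IGFBP3, a growth factor carrier that KLK3 cuts, averaged 88.5 FPKM in 22Rv-1 ARv7-depleted and 4.76 FPKM in 22Rv-1 control (log2 4.17 ± 0.062, adjusted p = 4.5e-64). The thrombin receptor F2R rose by 0.51 ± 0.107 in C4-2 ARv7 (adjusted p = 0.000407). The urokinase receptor PLAUR had 39 counts in C4-2 ARv7 and 8 in C4-2 control, a ratio of 5.21 (exact 95% counting interval 2.40 to 12.9). Its fitted log2 fold change of 2.18 was 2.95 without the first C4-2 control library and 1.64 without the third. PLAUR fell by 1.10 ± 0.188 in 22Rv-1 ARv7-depleted cells (adjusted p = 8.4e-07).

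Of 7 tested secretory genes of the luminal prostate cell, 5 were higher and 2 lower in C4-2 ARv7, beside 29.6% and 29.5% of all genes. Of 4 tested in 22Rv-1, 1 was higher and 3 lower in ARv7-depleted cells, beside 23.9% and 24.1% of all genes. ORM1 and PIP in C4-2 and NPY in 22Rv-1 passed the filter through the group where they are high and had to differ to enter these counts. The median log2 fold change was 1.27 in C4-2 and −0.36 in 22Rv-1, against 0.01 over all genes in each. AZGP1, a secreted zinc-binding glycoprotein, rose by 1.63 ± 0.076 on the log2 scale in C4-2 ARv7 and fell by 0.54 ± 0.071 in 22Rv-1 ARv7-depleted cells (edgeR adjusted p of 5.5e-13 and 1.06e-09).

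Further secretory genes had wide ranges. ORM1, an acute-phase plasma protein, had 1711 counts in C4-2 ARv7 and 3 in C4-2 control, a ratio of 609.5 per library total (exact 95% counting interval 208.2 to 2958). Its fitted log2 fold change of 8.94 was 9.81 without the third C4-2 control library. PIP, a secreted prolactin-inducible protein, had 68 counts in C4-2 ARv7 and 7 in C4-2 control, a ratio of 10.4 (exact 95% counting interval 4.77 to 26.8). PLA2G2A, a secreted phospholipase, averaged 13.0 FPKM in C4-2 ARv7 and 49.9 FPKM in C4-2 control (log2 −2.09 ± 0.087, edgeR adjusted p = 9e-14). ACP3, prostatic acid phosphatase, was the one that rose in 22Rv-1 ARv7-depleted cells, by 2.15 ± 0.198 (adjusted p = 1.6e-15). NPY had 12 counts in 22Rv-1 ARv7-depleted and 100 in 22Rv-1 control, 7.89 times as many per library total in the control (exact 95% counting interval 4.33 to 15.8). Its fitted log2 fold change of −2.98 was −3.65 without the first ARv7-depleted library. SPDEF, a luminal transcription factor, fell by 0.19 ± 0.06 in 22Rv-1 ARv7-depleted cells (adjusted p = 0.0081), a call lost with total counts alone (0.0529), with limma (0.0667 and 0.0676) and without the first ARv7-depleted library (0.148).

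Factors known at kallikrein enhancers went both ways. Of 10 tested, 2 were higher and 5 lower in C4-2 ARv7, beside 29.6% and 29.5% of all genes, and 3 were higher and 4 lower in 22Rv-1 ARv7-depleted cells, beside 23.9% and 24.1%. Median log2 fold changes were −0.09 and −0.10, against 0.01 over all genes in each. NCOA1, a nuclear receptor coactivator, averaged 10.4 FPKM in C4-2 ARv7 and 24.3 FPKM in C4-2 control (log2 −1.37 ± 0.066, edgeR adjusted p = 7.8e-13). HOXB13, a homeobox factor of prostate, fell by 0.56 ± 0.072 (adjusted p = 1.64e-06). CREBBP, an acetyltransferase, and GATA2, a pioneer factor, fell by 0.44 ± 0.065 and 0.43 ± 0.065 (adjusted p of 9.3e-06 and 1.08e-05).

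In 22Rv-1 GATA2 averaged 69.0 FPKM in ARv7-depleted cells and 31.8 FPKM in control cells (log2 1.07 ± 0.054, edgeR adjusted p = 3.8e-29). The epithelial factor GRHL2 rose by 0.86 ± 0.048 (adjusted p = 1e-26). CREBBP fell by 0.63 ± 0.057 and its relative EP300 by 0.32 ± 0.053 (adjusted p of 4e-16 and 3.7e-07).

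Profiles over the 12 libraries were compared by Euclidean distance between log2 CPM values centred on each gene's mean, over the 11170 other genes that averaged 5 CPM or more. The closest to KLK3 were EFS (1.34), ST6GALNAC1 (1.63), MAGEA10 (1.67), RTN1 (1.76) and PXDN (1.99), where KLK3 itself lies 10.9 from a flat profile. In ARv7-depleted cells EFS, ST6GALNAC1, MAGEA10 and PXDN averaged at most 0.202 FPKM, and in the control of that line at most 0.0582 FPKM. They were near the floor in that line and were not tested there. Their closeness to KLK3 therefore does not show that they follow it within that line. The closest to KLK2 were SMS (0.717), PTPN21 (0.968), NUDT8 (1.19), COL16A1 (1.28) and GRIN2C (1.34), where KLK2 lies 4.46 from a flat profile. No gene appears on both lists, and neither list holds a kallikrein.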

How the data were processed

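Per the labels, RNA of triplicate dishes was sequenced by Illumina NovaSeq. Per the submitters' processing notes, cutadapt 2.7 trimmed the reads. The aligner, the counter and the strand were not given in the sources used here. The authors deposited raw read counts per gene and FPKM. The deposited FPKM equal counts over gene length and library total. The submitters' notes list hg18, yet 8 of the 10 kallikreins have both ends as in GENCODE 29 on GRCh38, and no end was more than 580 bases away, so coordinates are GRCh38. Of 19974 lines, 1 had no gene identifier and was left out.

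Genes were filtered with filterByExpr, scaled by TMM and tested with edgeR 4.0.16 (quasi-likelihood F-test, R 4.3.3), with Benjamini-Hochberg adjustment over all genes tested and a threshold of 0.05. The fit was run within each line for the ARv7 comparisons and over 12 libraries for the others. DESeq2 1.42.0, limma 3.58.1 on log2(FPKM + pseudocount), other scalings and filters, and each library left out were alternatives. SE is the log2 fold change over the root of F. The fits were checked on simulated counts. Ratios carry exact 95% counting intervals, which cover counting error only, and a group at 0 takes a floor of 3 counts. Same-numbered dishes did not deviate together, so no block was used. Besides the 10 kallikreins, up to 4 genes with the smallest adjusted p were named per list and ARv7 comparison. Some genes of the lists are not reported here. The members and lists were chosen with earlier results of these data known. Promoter windows are from RefSeq.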

Additional observations from a re-analysis of the deposited data

Results flagged for a closer look

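In the interaction contrast of edgeR, 6 of 6 tested kallikreins were called, beside 50.7% of all 14235 genes. Their change from lower to higher ARv7 differed between C4-2 (ARv7 over control) and 22Rv-1 (control over ARv7-depleted). The difference in log2 fold change, C4-2 minus 22Rv-1, was 2.57 for KLK2, 2.57 for KLK3, −0.64 for KLK4 and 1.02 for KLK15. It was 1.58 for KLK1 (adjusted p = 0.0357), which had 22 counts in C4-2 ARv7 and 10 in C4-2 control. KLK1 entered the contrast through the 22Rv-1 groups. The KLK1 call was lost without the first (adjusted p = 0.06) or the second (0.172) C4-2 control library, without the second C4-2 ARv7 library (0.599, log2 0.55) and with limma at a pseudocount of 0.1 (0.0526).

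KLK11 passed the filter through the 22Rv-1 ARv7-depleted group alone and had to differ within 22Rv-1 to be counted. For KLK11 the difference was 5.70 (edgeR adjusted p = 0.0388). It rests on 2 counts in C4-2 ARv7 and 0 in C4-2 control, where the fitted value depends on the prior count and is no bound. That call was lost without the second C4-2 ARv7 library (adjusted p = 1.0), which holds both counts. It was also lost without the first, the second or the third C4-2 control library (0.0604, 0.063 and 0.0564), the first or the third 22Rv-1 control library (0.052 and 0.0507) or the second 22Rv-1 ARv7-depleted library (0.0506).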

How the results depend on the processing

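The calls of KLK2, KLK3 and KLK4 in C4-2 and of KLK1, KLK2, KLK3, KLK11 and KLK15 in 22Rv-1 held under the alternatives that tested them. KLK3 ranged from 1.86 to 2.05 on the log2 scale in C4-2 and from 0.54 to 0.71 in 22Rv-1. Signs turned for values near 0 that passed no test. KLK15 in C4-2 ran from −0.20 to 0.20 with single libraries left out. KLK4 in 22Rv-1 control over C4-2 control was 0.0904 with total counts and 0.0902 and 0.0905 with limma at pseudocounts of 1 and 0.1. With limma at a pseudocount of 1, which shrinks low genes, log2 changes were −0.84 for KLKB1, 1.599 for PIP, 5.47 for ORM1 and −2.30 for SERPINA5 in C4-2, and −1.46 for NPY in 22Rv-1. Other causes were not tested. With total counts, 67.2% of calls were higher in C4-2 ARv7 (50.03% with TMM), and 72.0% in the contrast between the lines (54.0% with TMM).

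Same-numbered dishes correlated at −0.058 to 0.025 in C4-2 and −0.113 to 0.004 in 22Rv-1. With a replicate block, calls numbered 7310 (7557 without it) in C4-2, 6203 (6467) in 22Rv-1, 6865 (7211) in the contrast between the lines and 11753 (11875) between the controls. With counts not divided by gene length, an alternative chosen after seeing the data, KLK3 made up 74.7% of kallikrein counts in C4-2 ARv7 and 51.8% in C4-2 control, and 3.93% in 22Rv-1 ARv7-depleted and 2.52% in 22Rv-1 control. Genes under 3 counts per library could not be ordered at this depth.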
